A study of Homo sapiens with 8 samples.

Results

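Toll-like receptors and the proteins that carry their signal were followed across an RND3 knockdown in U87 cells. The set held 10 genes, the receptors TLR1 to TLR6, the adaptors MYD88 and TIRAP, and the kinases IRAK1 and IRAK4. A probe was taken when it was not a control spot and its RefSeq transcript accession or gene name belonged to any of these genes, which gave 15 probes out of 42405 on the array and 10 genes out of 19483 that could be named. The array carried 1 probe each for TLR1, TLR2, TLR3, TLR6, MYD88 and IRAK4, 2 probes each for TLR4, TLR5 and IRAK1, and 3 for TIRAP.

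U87 is an established human glioblastoma line. Cells were reverse transfected with siRNA against RND3 (siRND3) or with a non-silencing control siRNA (siControl). Total RNA was hybridised to 8 Agilent arrays with a single dye. There were 3 siControl and 3 siRND3 arrays at 24 h, and 1 of each at 48 h. The methods used more than 1 siRNA against RND3, and neither they nor the labels tie an oligonucleotide to an array. The labels also do not say whether replicates were separate transfections, so the p-values measure only the spread between these samples, which may be technical. RND3 itself (A_23_P142849) lay at 31.7% of the siControl level at 24 h and at 31.9% at 48 h.

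Toll-like receptors recognise conserved molecules of microbes and of damaged cells. TLR1, TLR2, TLR4, TLR5 and TLR6 act at the cell surface, whereas TLR3 senses RNA duplexes inside endosomes. Every receptor of this set apart from TLR3 signals through MYD88, which TIRAP helps to recruit at TLR2 and TLR4 and which assembles IRAK4 and IRAK1. TLR3 uses the adaptor TICAM1 (TRIF), which TLR4 can also engage. These routes lead to NF-kB and interferon regulatory factors and so to cytokine and chemokine genes. In the brain the receptors are best known from microglia and astrocytes, and glioma cells express some of them.

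All 8 arrays shared 1 slide and 1 scan. The siRND3 samples filled row 1 of the slide and the siControl samples row 2, so the row and the treatment cannot be told apart. On each array 68.3% to 70.7% of probes were marked well above background by the scanner software, called detected here, and no spot was saturated. The label of the cells was checked against marker genes. All 6 genes of mesenchymal glioma cells were detected on all 8 arrays, and of the 4 astrocyte genes ALDH1L1 was detected on all 8, S100B and AQP4 on 1 each, and GFAP on none. The summed linear level of the mesenchymal list ran from 236340 to 250940 in siControl and from 200976 to 229843 in siRND3 at 24 h. These did not overlap, and the sums were 245850 and 174995 at 48 h. In this list CD44 fell by 0.58 at 24 h (limma adjusted p 0.00721) and differed by -2.12 at 48 h. NES rose by 0.41 with A_23_P103672 (adjusted p 0.0472), its second probe did not pass (0.23, adjusted p 0.196), and no other gene of the list passed. CDKN2A, which is known to be deleted in U87, had 1 of its 2 probes detected on all 8 arrays. Of the leukocyte list, 9 of 11 genes were on the array, 7 had a probe detected on all 8 arrays, and the microglial genes CX3CR1 and P2RY12 were detected on none. The summed linear level of that list ran from 7295 to 7442 in siControl and from 7213 to 8218 in siRND3 at 24 h, so the groups overlapped, and it was 6789 and 7829 at 48 h. Of these genes CSF1R, the receptor for macrophage colony-stimulating factor, fell by 0.35 on the log2 scale at 24 h (limma adjusted p 0.0295). Its difference at 48 h was -1.72. CD68 went the other way, with all siRND3 arrays above all siControl arrays at 24 h. The CD68 difference of 0.20 did not pass (adjusted p 0.208), and that at 48 h was 0.76. The sum holds both genes, so its overlap does not show that each gene was level. The endothelial sums, 228 to 262 and 221 to 234, also overlapped at 24 h and were 361 and 233 at 48 h, and their members differed in sign at 24 h, with a fall of 0.99 for the PECAM1 probe A_23_P252471 (adjusted p 0.0216) and a difference of 0.31 for CDH5 that did not pass (adjusted p 0.0619). The part of other cell types in the results below was not tested. In RNA from a whole culture, fewer cells expressing a gene and less RNA per cell cannot be told apart.

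The promoters of the 3 genes that passed the test at 24 h are shown first. Those of MYD88 and TLR3 held a match to GAAANNGAA, part of the core of an interferon-stimulated response element, the site of interferon regulatory factors. That of TLR4 held no such match. It held a match to GAANNGAAA, a motif with a different spacing, as did the promoter of TLR6, which did not pass. Sequences came from the RefSeq promoter table (build GRCh38.p14, from 250 bases before to 50 bases after each start), in which 8 of the 10 genes were found. TIRAP and TLR1 were not matched. Each run below is 100 bases on the plus strand, 5′ to 3′, with the matching letters in capitals. MYD88 is at chr3:38138561-38138660 (bases -100 to -1 from the start), TLR4 at chr9:117704253-117704352 (-150 to -51) and TLR3 at chr4:186069062-186069161 (-94 to 6).
MYD88: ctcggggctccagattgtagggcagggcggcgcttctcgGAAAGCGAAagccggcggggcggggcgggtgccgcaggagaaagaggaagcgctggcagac
TLR4: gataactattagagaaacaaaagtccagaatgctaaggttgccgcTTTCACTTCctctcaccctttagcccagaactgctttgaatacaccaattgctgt
TLR3: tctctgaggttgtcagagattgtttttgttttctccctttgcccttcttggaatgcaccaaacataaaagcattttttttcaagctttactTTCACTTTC

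The motif GAAANNGAA, searched on both strands, was found in MYD88 on the same strand (-61 to -53) and in TLR3 on the opposite strand (-3 to 6), and in 8.29% of all 27305 promoters. The overlapping motif GAANNGAAA was found on the opposite strand in TLR4 (-105 to -97) and in TLR6 (8 to 16 and 30 to 38), and in 7.86% of all promoters. The NF-kB consensus was present in 10.8% of promoters and, among the 8 members, in that of IRAK1. The NF-kB site letters GGACTTTCC were in 0.374% of promoters, among them that of TLR2, and the AP-1 letters TGANTCA in 7.76%, among them that of IRAK1. The motifs were chosen after the sequences had been seen, the NF-kB consensus can overlap GGACTTTCC, and a match is a description of the letters alone. Genes with a match to GAAANNGAA or GAANNGAAA moved in both directions at 24 h, as the values below show.

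At 24 h the transcripts of TLR4, a receptor for bacterial lipopolysaccharide, and of MYD88, the adaptor shared by most of the receptors, were lower in siRND3 cells, and that of TLR3 was higher. Values are log2 of the background-corrected spot intensity after quantile normalisation, in which 1 unit is a 2-fold change, and a difference is siRND3 minus siControl. Of the 10 genes, 9 had a probe bright enough to test, and 3 of these 9 passed the threshold (adjusted p of 0.05 over all probes tested), 2 lower and 1 higher. Across the array 16.4% of genes tested passed, 9.26% lower and 7.16% higher. By probe, 3 of 13 passed, against 11.6% of all probes tested (5.27% higher and 6.38% lower). The median difference of the 13 probes was -0.05, and that of all 28759 probes tested was 0.05.

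**Figure D1:**
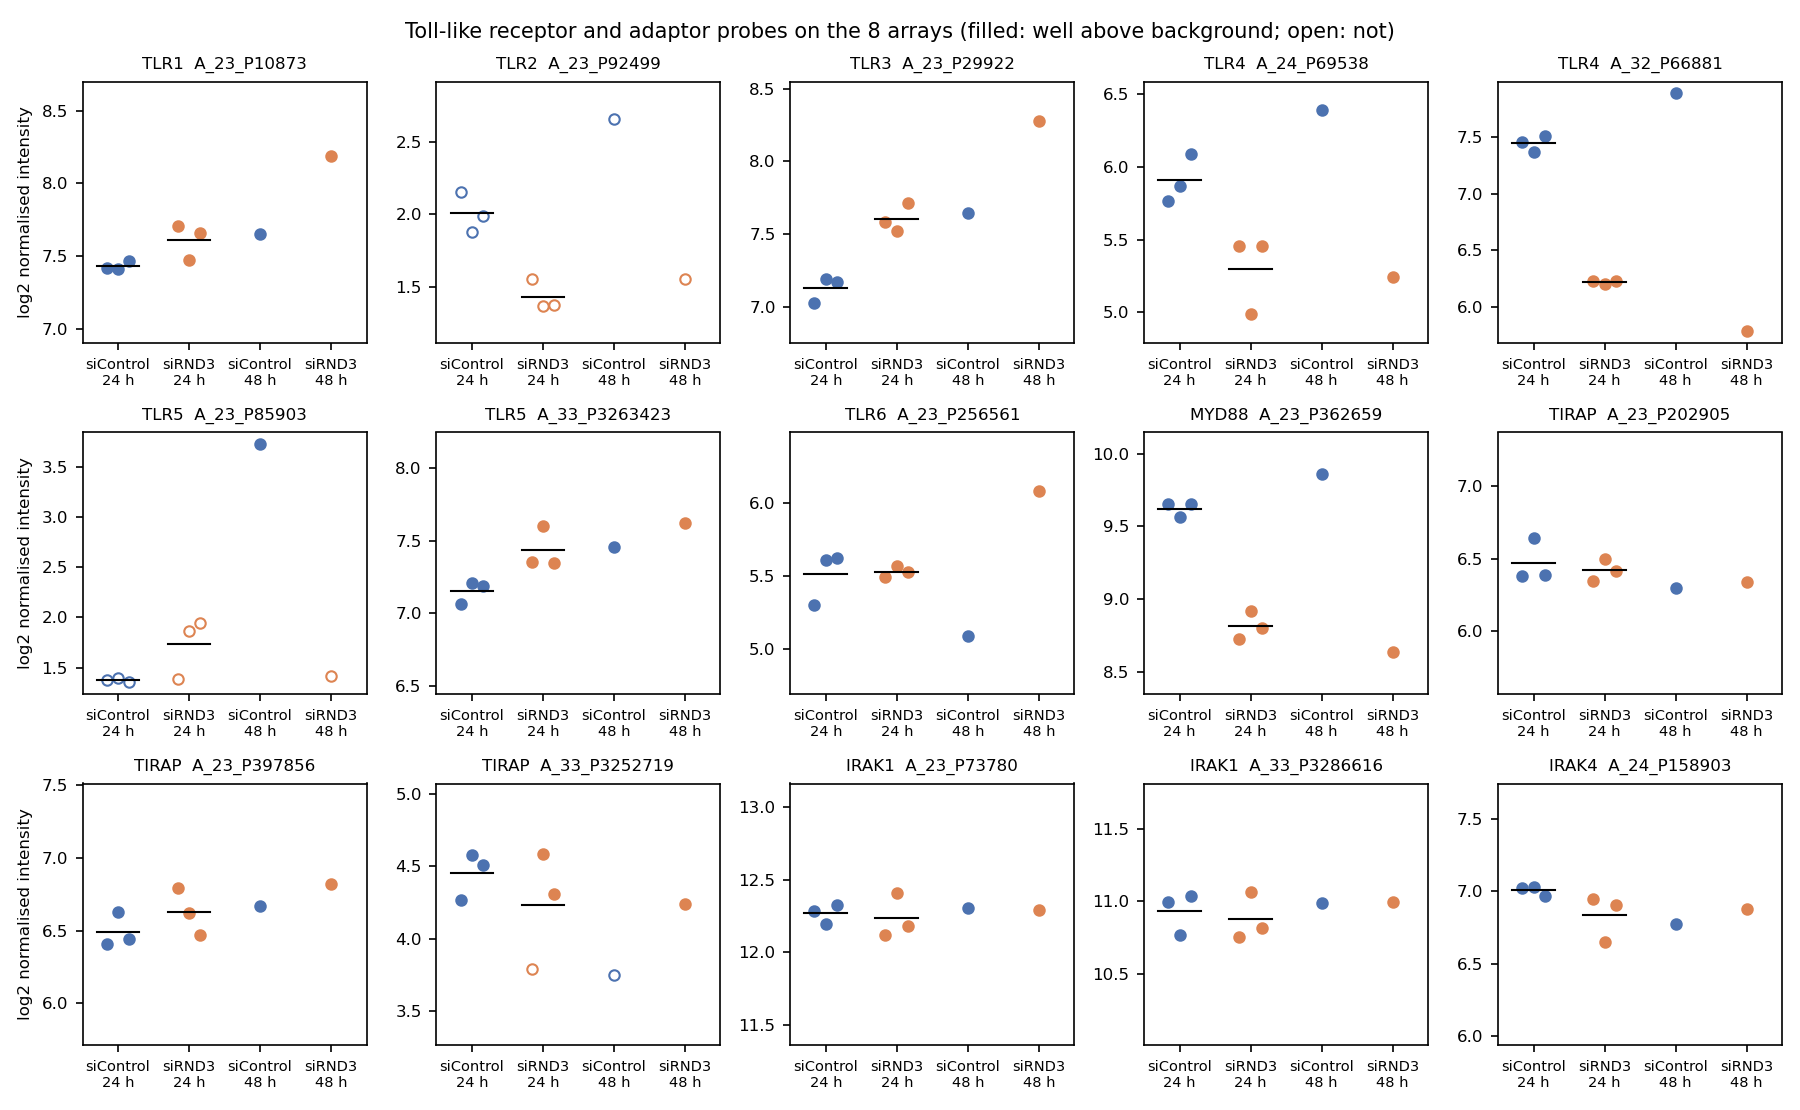
Log2 normalised intensity of the 15 probes of the 10 genes on each of the 8 arrays, in 1 panel per probe with its own axis range. Points are arrays (blue siControl, orange siRND3, open where not detected above background) and bars are means of 3 arrays at 24 h. For TLR4 A_32_P66881 the siRND3 arrays lay between 6.20 and 6.23 and the siControl arrays between 7.36 and 7.50 at 24 h.

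Among the receptors, TLR4 was measured by 2 probes for the same transcript. Probe A_32_P66881 read 7.46, 7.36 and 7.50 on the siControl arrays and 6.23, 6.20 and 6.23 on the siRND3 arrays at 24 h. The siRND3 arrays were all lower and nearly level with each other. Its mean fell from 7.44 ± 0.07 (SD, n = 3) to 6.22 ± 0.01 (SD, n = 3), a difference of -1.22 (SE 0.07, 95% interval -1.40 to -1.05, limma adjusted p 0.000362), which left 42.8% of the control level. Probe A_24_P69538 read 5.76, 5.87 and 6.09 on the siControl arrays and 5.45, 4.98 and 5.46 on the siRND3 arrays. Here too the groups did not overlap, but the siRND3 arrays were spread more widely. The difference of -0.61 (SE 0.16, 95% interval -0.99 to -0.23) missed the threshold (adjusted p 0.0550).

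The size of the TLR4 difference changed with the signal used. With normexp background correction, run on spot medians with an offset of 50, it was -0.70 for A_32_P66881 and -0.21 for A_24_P69538, and with the authors' deposited log2 values A_24_P69538 gave -0.29. A_32_P66881 passed the threshold under all 16 alternatives and A_24_P69538 under 3, namely a filter on all 6 arrays at 24 h, a model of all 8 arrays, and significance analysis of microarrays (SAM). The study named TLR4 as lowered from these same arrays, so the direction is not independent evidence.

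TLR3 read 7.02, 7.19 and 7.17 on the siControl arrays and 7.58, 7.52 and 7.71 on the siRND3 arrays at 24 h. All siRND3 arrays were above all siControl arrays. The mean rose from 7.13 ± 0.09 to 7.60 ± 0.10 (SD, n = 3 each), a difference of 0.48 (SE 0.09, 95% interval 0.26 to 0.69, limma adjusted p 0.0199) or 139% of the control level. The call was lost when any siControl replicate (adjusted p 0.0742, 0.0549 and 0.0693 for replicates 1 to 3) or siRND3 replicate 3 (0.0503) was left out. With normexp the difference was 0.31 and remained past the threshold (adjusted p 0.0134).

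The receptors that act with TLR2, and TLR5, the receptor for flagellin, did not pass the test. TLR1, which works in a complex with TLR2, read 7.42, 7.41 and 7.47 in siControl and 7.71, 7.47 and 7.66 in siRND3 cells at 24 h. The groups did not overlap, although siRND3 replicate 2 lay just above the highest control, and the difference was 0.18 (95% interval -0.03 to 0.39, limma adjusted p 0.228). TLR1 was read from 10 spots per array, whose SD within an array was between 0.05 and 0.09.

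TLR6, the other receptor that works with TLR2, read 5.30, 5.61 and 5.63 in siControl and 5.49, 5.57 and 5.53 in siRND3 cells. These overlapped, with a difference of 0.02 (95% interval -0.24 to 0.27, adjusted p 0.936). TLR5 probe A_33_P3263423 read 7.07, 7.21 and 7.19 in siControl and 7.35, 7.60 and 7.35 in siRND3 cells. The siRND3 arrays were all higher, but the difference of 0.28 (95% interval 0.05 to 0.52) missed the threshold (adjusted p 0.119).

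TLR2 itself, the receptor for bacterial lipoproteins, was not detected above background by its probe on any of the 8 arrays. Only 1 of its 80 spots was marked well above background, and its probe was not tested. The other TLR5 probe, A_23_P85903, was also untested. It was detected on 0 of the 6 arrays at 24 h, and on the siControl array at 48 h 1 of its 2 spots read a linear intensity of 76.4 and the other 2.64.

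Of the adaptors, MYD88 fell and TIRAP did not pass on any probe. MYD88 (A_23_P362659) read 9.65, 9.56 and 9.65 on the siControl arrays and 8.73, 8.92 and 8.80 on the siRND3 arrays at 24 h. The groups were well apart, by more than the spread within either. The mean went from 9.62 ± 0.05 to 8.81 ± 0.10 (SD, n = 3 each), a difference of -0.81 (SE 0.08, 95% interval -1.0 to -0.61, limma adjusted p 0.00215), or 57.2% of the control level. It passed the threshold under all 16 alternatives, with differences from -0.91 to -0.71.

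TIRAP probe A_23_P202905 read 6.38, 6.64 and 6.39 in siControl and 6.34, 6.50 and 6.42 in siRND3 cells, a difference of -0.05 (95% interval -0.29 to 0.19). Probe A_23_P397856 read 6.41, 6.63 and 6.44 in siControl and 6.79, 6.62 and 6.47 in siRND3 cells, a difference of 0.14 (95% interval -0.13 to 0.40). The groups overlapped on both. The third probe, A_33_P3252719, was dim, being detected on 5 of the 6 arrays at 24 h, and gave -0.22 with a wide interval (-0.71 to 0.27). The TIRAP probes therefore differed in sign, and none differed beyond the spread between arrays (adjusted p 0.788, 0.479 and 0.537).

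Neither kinase passed the test. IRAK4, the first kinase to join MYD88, read 7.02, 7.03 and 6.97 in siControl and 6.95, 6.65 and 6.90 in siRND3 cells at 24 h. The siRND3 arrays were all lower, with replicate 2 the lowest, but the difference of -0.17 (95% interval -0.40 to 0.06) did not pass (limma adjusted p 0.312). IRAK1, which IRAK4 phosphorylates, read 12.28, 12.20 and 12.33 in siControl and 12.12, 12.41 and 12.18 in siRND3 cells with probe A_23_P73780. The values were interleaved, and the differences were -0.03 (95% interval -0.27 to 0.20, adjusted p 0.863) with this probe and -0.05 (-0.34 to 0.23, adjusted p 0.808) with A_33_P3286616.

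**Figure D2:**
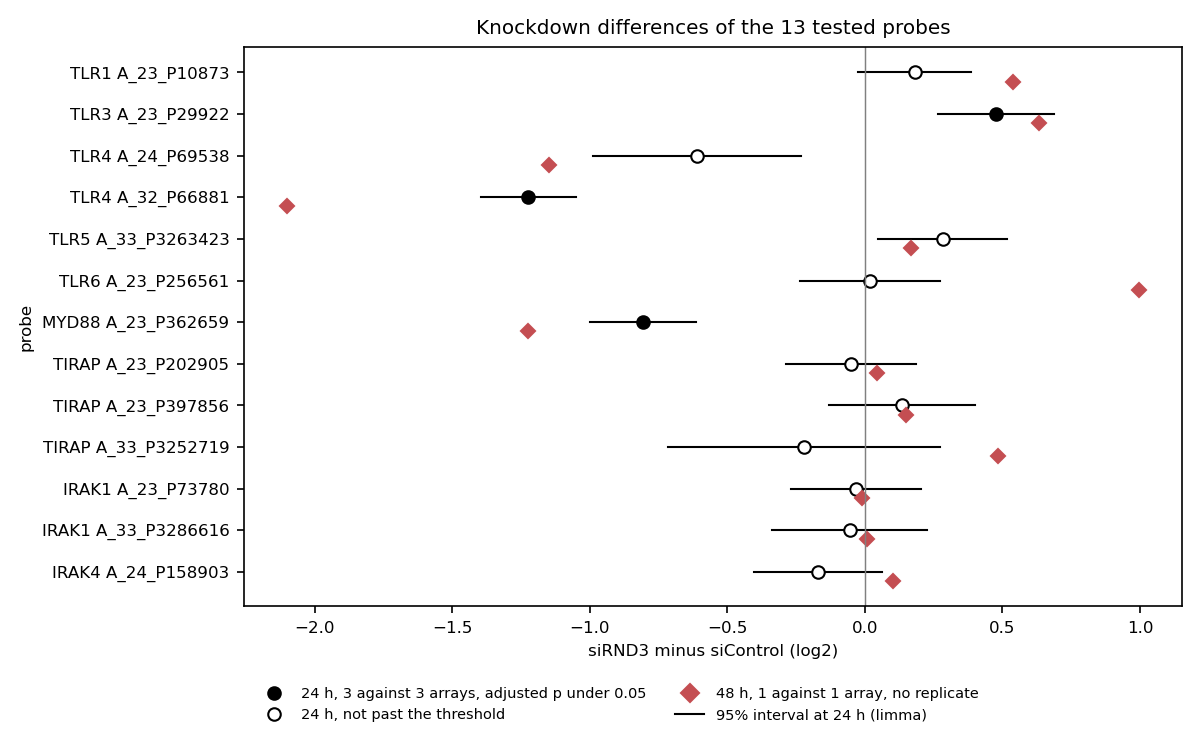
Difference of siRND3 minus siControl (log2, x axis) for the 13 tested probes (y axis), as circles for 3 against 3 arrays at 24 h with 95% limma intervals (filled where the adjusted p was under 0.05) and as diamonds for 1 against 1 array at 48 h, with no replicate. TLR4 A_32_P66881 stands at -1.22 at 24 h and -2.10 at 48 h, and TLR6 at 0.02 and 1.00.

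Counted by overlap, 4 of the 13 tested probes had all siRND3 arrays below all siControl arrays at 24 h (TLR4 with both probes, MYD88 and IRAK4) and 3 had them all above (TLR1, TLR3 and the brighter TLR5 probe). The other 6 overlapped. Across the array 34.4% of probes did not overlap, 14% below and 20.3% above. An exact two-sided permutation test of each of these 7 probes gave p = 0.1, the smallest value that 3 against 3 arrays allow. Groups that do not overlap always give this value, so the test only restates the count.

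At 48 h, with 1 array per treatment and so no replicate, the probes that passed at 24 h differed in the same direction and by more. TLR4 A_32_P66881 read 7.89 in siControl and 5.78 in siRND3 cells, a difference of -2.10 that left 23.3% of the control level. MYD88 read 9.86 and 8.63, a difference of -1.22 (42.8% of control), and TLR3 read 7.64 and 8.28, a difference of 0.63 (155% of control). For TLR3 the difference at 48 h exceeded that at 24 h by only 0.16, a change that did not pass the test given below. For scale, the median absolute difference over all tested probes was 0.28 at 48 h and 0.16 at 24 h.

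The other members differed in both directions at 48 h. TLR4 A_24_P69538 read 6.39 in siControl and 5.24 in siRND3 cells, a difference of -1.15. TLR6 read 5.09 and 6.09, a difference of 1.00, and TLR1 7.65 and 8.19, a difference of 0.54. TLR6 thus had the largest positive difference of the 13 probes at 48 h after one of 0.02 at 24 h. Its 2 spots read linear intensities of 29.1 and 44.6 in siControl and 60.5 and 80.8 in siRND3 cells at 48 h. The change of its knockdown effect between the times ran from 0.40 to 1.09 over 13 alternatives. TLR5 A_33_P3263423 differed by 0.17, IRAK4 by 0.10, IRAK1 by -0.01 and 0.01, and TIRAP by 0.04, 0.15 and 0.49. The largest TIRAP value came from the dim probe, which was not detected in siControl cells at 48 h.

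A change of the knockdown effect with time was tested in a model of 4 groups, which lends the lone arrays at 48 h the spread seen at 24 h. The effect was more negative at 48 h for TLR4 A_32_P66881, by -0.88 (SE 0.14, 95% interval -1.22 to -0.53, limma adjusted p 0.0375). It was the only member probe of 13 to pass, against 2.73% of all probes (1.63% more negative and 1.1% more positive), and the call was lost when any array at 24 h was left out, as described in the closing section. The second TLR4 probe gave -0.54 (adjusted p 0.439). TLR6 gave 0.98 (95% interval 0.47 to 1.49, adjusted p 0.0696) and MYD88 -0.42 (95% interval -0.80 to -0.03, adjusted p 0.236), neither past the threshold.

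Between 24 h and 48 h in siControl cells, 0 of the 13 member probes passed the limma test, against 3.56% of all probes (0.824% higher and 2.73% lower), and 4 had an unadjusted p under 0.05, as did 6226 of all 28759 probes. These were TLR3 (0.51, adjusted p 0.0810), TLR4 A_32_P66881 (0.44, adjusted p 0.0733), TLR6 (-0.42, adjusted p 0.175) and the dim TIRAP probe (-0.70, adjusted p 0.230). In siRND3 cells the corresponding changes, given as values with no test, were 0.67 for TLR3, -0.43 for TLR4 A_32_P66881 and 0.56 for TLR6. For TLR4 A_32_P66881 and TLR6 the values thus moved in opposite directions in the 2 treatments, while TLR3 was higher at 48 h in both. The second TLR4 probe, A_24_P69538, changed by 0.48 in siControl cells and by only -0.05 in siRND3 cells. These comparisons share arrays with each other and with the comparison at 24 h.

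**Figure D3:**
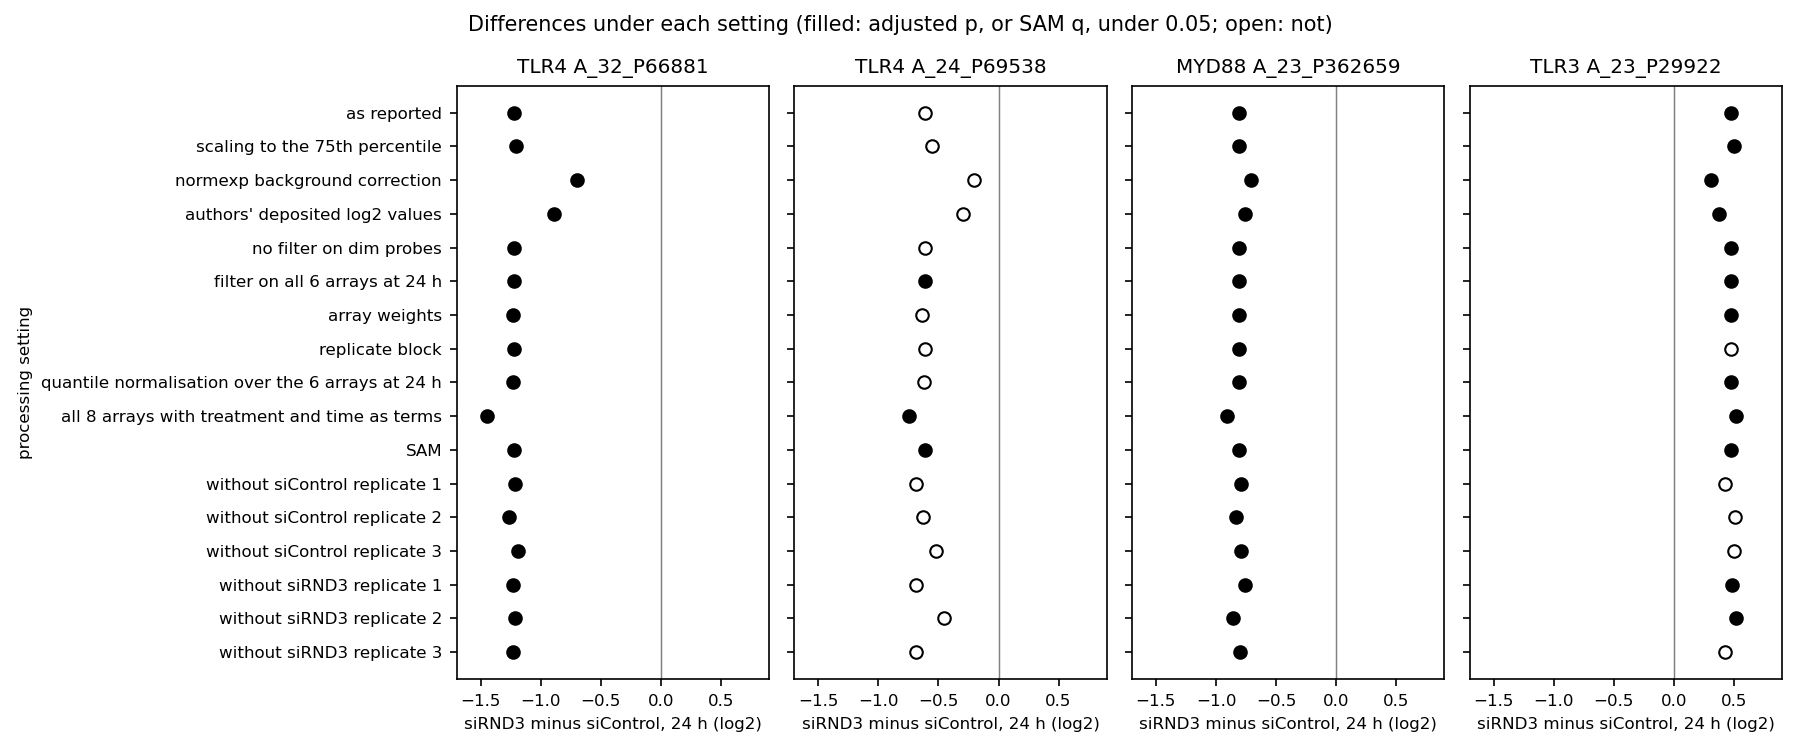
Difference of siRND3 minus siControl at 24 h (log2, x axis) for both TLR4 probes, MYD88 and TLR3 under the reported setting and 16 alternatives (y axis), filled where the adjusted p, or the q of SAM, was under 0.05. TLR4 A_32_P66881 and MYD88 are filled throughout, TLR3 is open under 5 alternatives, and TLR4 A_24_P69538 is filled under 3.

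The rest of the pathway was described from 43 other genes, of which 42 were on the array and 35 were tested. At 24 h 5 rose, 4 fell and 26 did not pass, with a median probe difference of -0.01, and the share called can be read against 16.4% of all genes. Of the other receptors, TLR7, TLR8 and TLR10 were not bright enough to test and TLR9 did not pass (0.36, adjusted p 0.0506; named because it was the only receptor left in its group). None of the 5 co-receptors and chaperones and none of the 4 brakes that were tested passed.

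Both other adaptors with a TIR domain that were tested fell, against 9.26% of all genes tested. TICAM1, the adaptor of TLR3, read 12.13, 12.27 and 12.09 in siControl and 11.26, 11.08 and 11.14 in siRND3 cells with A_23_P90311. The groups were far apart, with a difference of -1.0 (SE 0.09, limma adjusted p 0.00121), and the second TICAM1 probe gave -0.55 (adjusted p 0.0353). TICAM1 was thus lower where TLR3 was higher. SARM1, a TIR protein with NAD-cleaving activity, fell by 0.41 with A_24_P267293 (adjusted p 0.0280), while its second probe gave 0.19 and did not pass (adjusted p 0.321).

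Among the 18 kinases and ubiquitin ligases tested, 3 rose and 2 fell, against 7.16% of all genes tested higher and 9.26% lower. TAB2, which links ubiquitin chains to the kinase MAP3K7, read 12.01, 12.04 and 12.05 in siControl and 11.22, 11.06 and 11.26 in siRND3 cells with A_23_P19702. All siRND3 arrays were lower, the difference was -0.86 (SE 0.08, adjusted p 0.00165), and the second probe also passed at -0.64 (adjusted p 0.00755). UBE2N, a ubiquitin-conjugating enzyme that works with TRAF6, fell by 0.50 (adjusted p 0.0251). TRAF6, the ubiquitin ligase downstream of IRAK1, rose by 0.44 (adjusted p 0.0246), and the ligases PELI1 and PELI3, which act on IRAK proteins, rose by 0.71 (adjusted p 0.0377) and 0.35 (adjusted p 0.0464).

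Of the 5 transcription factors, all tested, 2 rose, against 7.16% of all genes tested. IRF3, which acts downstream of TICAM1, rose by 0.38 (limma adjusted p 0.0404) with A_23_P27677 but its second probe did not pass (0.32, adjusted p 0.0691), and IRF7 rose by 0.33 (adjusted p 0.0467). TICAM1 A_23_P90311 and both TAB2 probes passed under all 16 alternatives. The other calls in the pathway were lost under 6 to 10 of the 16, in each case including the omission of siControl replicate 1.

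**Figure D4:**
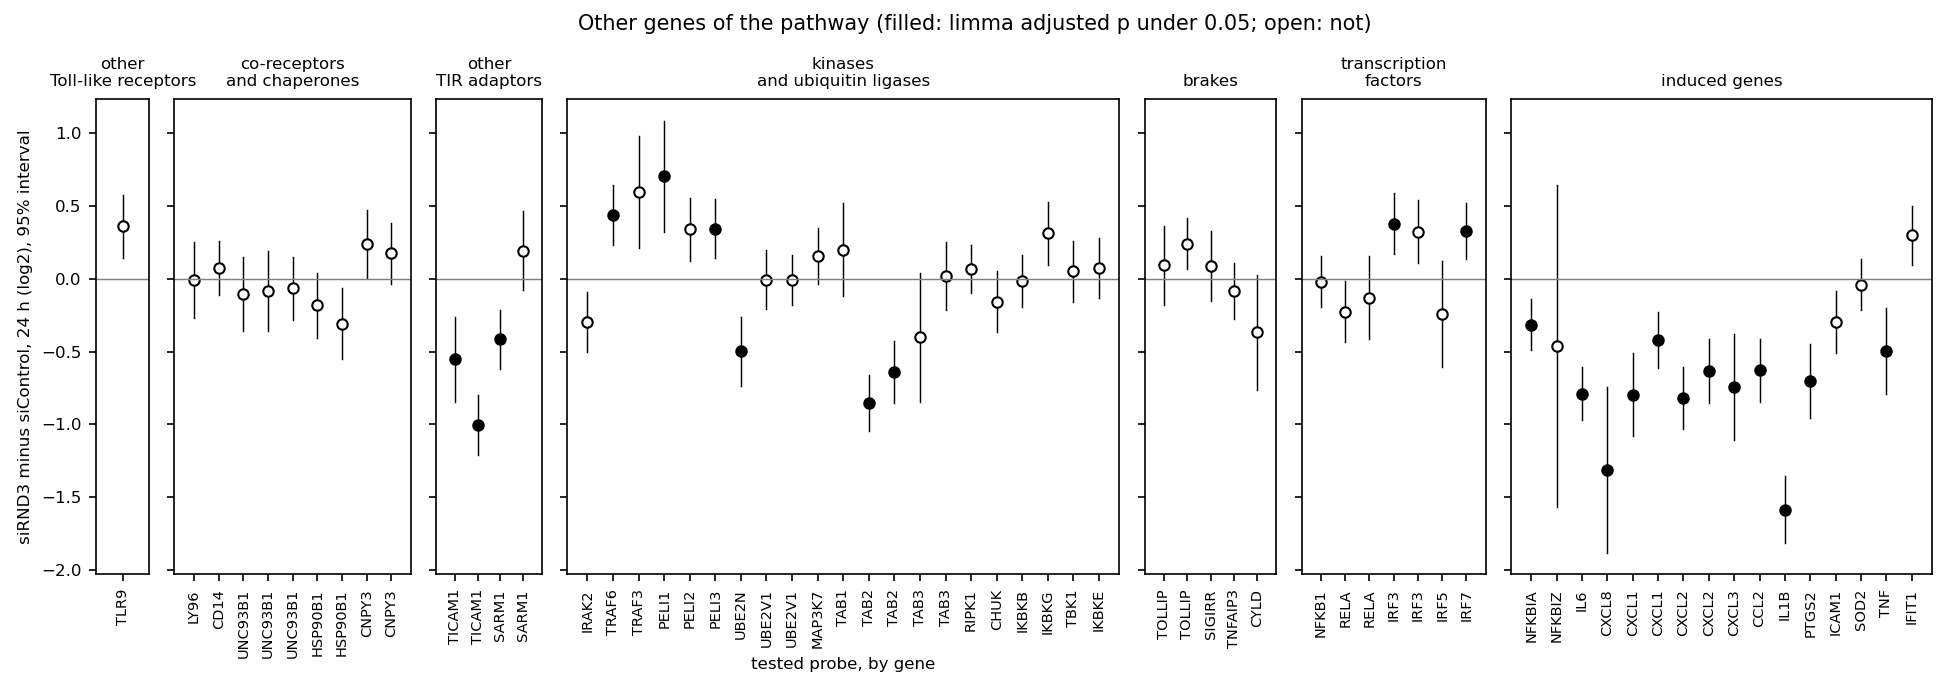
Difference of siRND3 minus siControl at 24 h (log2, y axis) for each tested probe of the other pathway genes and of genes induced through the receptors (x axis, grouped by role), with 95% limma intervals and filled where the adjusted p was under 0.05. In the group of induced genes 12 of 16 probes are filled, all below 0.

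A separate list held 17 genes known to be induced through these receptors. It was drawn up with earlier results of these data known, so its counts are a description and not independent evidence. Of the 14 tested, 10 fell, 0 rose and 4 did not pass at 24 h (12 of 16 probes, median probe difference -0.63, against 0.05 for all probes and 9.26% of genes lower across the array). IFIT1, which did not pass, went the other way, with a difference of 0.30 (limma adjusted p 0.0710) at 24 h and 0.95 at 48 h. All its siRND3 arrays lay above all siControl arrays at 24 h. The largest falls were in IL1B (-1.59, adjusted p 0.000385), the neutrophil chemokine CXCL8 (-1.31, adjusted p 0.0187), and its relatives CXCL2 (-0.82, adjusted p 0.00292) and CXCL1 (-0.80, adjusted p 0.00991). IL1B encodes the cytokine interleukin 1 beta, whose own receptor also signals through MYD88. The study itself picked IL1B as lowered from these samples. CXCL8 lost its call when dim probes were kept (adjusted p 0.0566) and when siControl replicate 1 (0.0591), 2 (0.0628) or 3 (0.0644) was left out, whereas the other 3 passed under all 16 alternatives, and the CXCL1 difference ran from -1.34 to -0.41. In the comparisons that rest on 1 array per treatment at 48 h, 7 of the 14 genes passed as higher at 48 h than at 24 h in siControl cells and 0 as lower, against 5.17% of all genes called in either direction, and 5 passed with a more negative knockdown effect at 48 h, against 4.24%. With the replicate number as a block 0 of all probes passed in either comparison, so these calls were lost.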

How the data were processed

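Total RNA of 8 U87 cultures was measured on 1-colour (Cy3) human Agilent arrays and grouped by the treatment and time in the labels. The authors ran Agilent Feature Extraction 10.7.3.1, and what they deposited per array is each spot's linear intensity, of which the processed signal had been background-corrected array by array. A second deposited table gives log2 values, quantile-normalised per the authors' methods, whose rank order within each array equalled that of the spot median signal. It served as an alternative.

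Control spots (4259 of 62976) were left out. Log2 processed signal of the remaining 58717 spots was quantile-normalised over the 8 arrays. Spots marked as outliers (0.364% to 0.530% per array) were then dropped and spots of a probe averaged, which gave 42405 probes. A probe was well above background on an array when at least 50% of its spots were so marked. Probes that met this on all 3 arrays of a group at 24 h were tested (28759). The number of arrays limits the precision. Names came from the RefSeq gene table (GRCh38.p14) by accession, which matched 25422 probes (60%). Since the array annotation used hg19, coordinates are given only for the promoter table.

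Groups were compared with limma 3.58.1 (lmFit, eBayes) in R 4.3.3 with p-values adjusted over every tested probe (Benjamini-Hochberg, threshold 0.05), on the 6 arrays at 24 h, or in a model of 4 groups on 8 arrays for the time comparisons. Probes of a gene were tested separately, and a gene counted as called when at least 1 probe passed and none passed the other way. SAM at a 5% false discovery rate, which the methods state, was written out over all 20 assignments of the 6 arrays. Other alternatives were scaling to the 75th percentile, normexp correction (offset 50), the deposited log2 values, no filter or a stricter filter on dim probes, normalisation over 6 arrays, a model of treatment plus time on all 8 arrays, array weights, the replicate number as a block, and leaving out each array at 24 h. The code was tested on simulated data. Named were RND3, every probe of the 10 genes, up to 12 other pathway genes past the threshold by size of the difference, and up to 4 of the induced genes. TLR9, IFIT1, CD44, NES, CSF1R, CD68, PECAM1, CDH5 and the genes named in the closing section for their change with time were added after their values were seen. The genes and lists were chosen with earlier results of these data known.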

Additional observations from a re-analysis of the deposited data

Results flagged for a closer look

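The effect of knockdown on TLR4 (A_32_P66881) differed between the times by -0.88 on the log2 scale (48 h minus 24 h, limma adjusted p 0.0375), which is what brought it here. At 48 h the difference of siRND3 minus siControl was -2.10, from 1 array each, and at 24 h it was -1.22. The test treats the lone arrays at 48 h as if they varied like those at 24 h. The value ran from -0.91 to -0.49 over 13 alternatives and passed the threshold under 6 of them. It missed under the replicate block (adjusted p 0.135) and when siControl replicate 1 (0.0985), 2 (0.0935) or 3 (0.0994) or siRND3 replicate 1 (0.0629), 2 (0.0629) or 3 (0.0678) was left out. The second TLR4 probe gave -0.54 and did not pass (adjusted p 0.439).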

How the results depend on the processing

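Of 13 member probes, 3 passed at 24 h, and the count moved by no more than 1.5 times under the 16 alternatives. The replicate numbers did not pair the arrays, since deviations from the group means correlated at 0.002, -0.01 and 0.13 for numbers 1 to 3. With the replicate block TLR3 kept 0.48 but missed the threshold (adjusted p 0.0590), the count over all probes at 24 h went from 3350 to 1651, and 0 member probes and 0 of all probes passed in the test of 48 h against 24 h effects (1 and 785 without it), as did 0 of all probes for time in siControl cells (1023 without it). With each array at 24 h left out in turn, the counts over all probes ran from 1379 to 2574 at 24 h, from 7 to 273 for the difference of effects, where 0 member probes passed, and from 73 to 905 for time. Fewer arrays enter each of these fits. Normexp gave 1300 probes for the difference of effects and 1565 for time, and array weights 1715 for time; the cause was not tested.

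Signs reversed only for differences near 0 that were not called. At 24 h TLR6 turned to -0.0163 with normexp and -0.0307 with the deposited values, and ran from -0.0891 to 0.0743 as single arrays were left out. TIRAP A_23_P202905 ran from -0.0931 to 0.0349 in the same way, IRAK1 A_23_P73780 from -0.120 to 0.0255 (and 0.0149 with 75th percentile scaling) and IRAK1 A_33_P3286616 from -0.148 to 0.00678. For the difference of effects TIRAP A_23_P397856 ran from -0.0635 to 0.0983 (and -0.0524 with that scaling) and IRAK1 A_23_P73780 from -0.0365 to 0.109 (and -0.00156). For time IRAK1 A_33_P3286616 ran from -0.0280 to 0.105. A block by slide or scan was not run, as there was 1 of each. Normexp was run on spot medians. TLR2 was not detected on any array, and the dim TLR5 probe A_23_P85903 only on the siControl array at 48 h, by 1 of its 2 spots.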

Other observations

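The following values rest on 1 array per treatment at 48 h, given the spread of the arrays at 24 h, and all of the calls were lost with the replicate number as a block, where 0 of all probes passed. Besides TLR4, 1 of the 47 tested probes of the other pathway genes passed the limma test of a difference in knockdown effect between the times, in TAB2 (A_23_P19702, -0.85, adjusted p 0.0491), and its second probe did not pass (-0.81, adjusted p 0.0718). In siControl cells 3 pathway genes passed between 24 h and 48 h. The differences of 48 h minus 24 h were 0.64 for TNFAIP3, a ubiquitin-editing brake on NF-kB signalling (adjusted p 0.0386), and -0.80 (adjusted p 0.0297) and -0.63 (adjusted p 0.0444) for the ligases PELI2 and PELI3. Other alternatives were not run for these genes.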
